A study of Homo sapiens with 4 samples.

Results

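SLC3A2, the heavy chain of the heteromeric amino acid transporters, was examined together with the 6 SLC7 light chains that pair with it (SLC7A5, SLC7A6, SLC7A7, SLC7A8, SLC7A10 and SLC7A11) and with the cationic transporters SLC7A1 and SLC7A2. These 9 genes were taken by symbol from a table of 57820 genes. The data are RNA sequencing of 786-0, a renal carcinoma cell line of human origin that was given a non-targeting short hairpin RNA (shNT, 2 libraries) or a hairpin against GLUD1 (shGLUD1, 2 libraries). GLUD1 encodes mitochondrial glutamate dehydrogenase. Before sequencing, the cells of all 4 libraries had been deprived of amino acids for 12 h, so every value is a level under starvation, with no fed cells to compare. The titles number the shGLUD1 libraries 1 and 2, read here as replicates, and do not say whether both carried the same hairpin. Nor do the labels say whether the replicates were separate cultures. SDs (n = 2 per group) and p-values therefore cover the spread among these 4 libraries alone, and that spread may be technical.

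SLC3A2, also called the CD98 heavy chain, is a glycoprotein with a single membrane span that carries no substrate itself. It is joined by a disulfide bond to a light chain of the SLC7 family, brings it to the plasma membrane, and the light chain decides which amino acids are exchanged. Several of these genes are known targets of ATF4, the transcription factor whose translation increases when amino acid shortage activates the kinase GCN2 (EIF2AK4) and eIF2alpha is phosphorylated. SLC7A1 and SLC7A2 belong to the same family but work without a heavy chain.

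The members were proposed with the contrast of shGLUD1 and shNT already known, SLC3A2 being among its largest decreases. Their values in that contrast are therefore given as a description, with no test. The gene lists below were also chosen with earlier results of these data known. Their counts and medians, set beside those of all genes, are likewise a description. Levels are in TPM, transcripts per 1000000, a unit per transcript length in which genes can be set side by side within a library. Fold changes are log2 differences of TPM + 1, shGLUD1 minus shNT, with the SE from a limma fit over all 12524 genes that had a mean of at least 1 TPM.

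Some facts of the whole series touch every value. GLUD1 itself was at 18.09 and 17.43 TPM in the controls and at 13.52 and 19.82 TPM in shGLUD1, so 1 library labelled as the knockdown was above both controls, and shGLUD1 below means the libraries with that label. On TPM its difference of -0.11 (log2) did not pass the limma test (adjusted p = 0.631), and after the rescaling described next it was lower (-0.84, adjusted p = 0.00201). TPM keep no read totals, so depth is unknown. The median gene was itself higher in shGLUD1 by a log2 fold change of 0.63, against -0.01 under median-ratio rescaling, made so that the typical gene hardly moves, and rescaled values are given beside TPM. Of 8 renal carcinoma markers, VIM rose from 930.90 and 890.77 TPM to 2901.83 and 3755.83 TPM (1.86, limma adjusted p = 1.6e-06, rescaled 1.08), EPAS1 (1.31, rescaled 0.58) and KRT8 (0.53, rescaled -0.23) rose on TPM, and KRT18 fell (-0.64, rescaled -1.04). The KRT18 call (limma adjusted p = 0.0425) was lost with any 1 library left out (0.0538 to 0.24), and that of KRT8 without shNT replicate 1 (0.45, limma adjusted p = 0.0544). KRT18 was low, at 1.87 and 1.54 TPM in shNT and at 0.66 and 0.82 TPM in shGLUD1. It thus reached the minimum for the fit through shNT alone. KRT8 and KRT18 overlap in part on opposite strands. As the sources used here do not say that counting used strand, reads from the overlap may not have been told apart. PAX8 was at 8.07 and 8.75 TPM in shNT and at 5.18 and 7.48 TPM in shGLUD1. It did not pass on TPM (-0.38, limma adjusted p = 0.155) and was lower after rescaling (-1.06, adjusted p = 0.00117). VEGFA overlapped between groups on TPM (-0.05) and was lower after rescaling (-0.81, limma adjusted p = 0.00138). PAX2 and CDH6 did not exceed 0.12 TPM, and the leukocyte marker PTPRC and the proximal tubule marker LRP2 did not exceed 0.01 TPM. These genes, from PAX8 on, were named after their values were seen. Of 6 renal markers measured, 3 rose and 1 fell on TPM, beside 56.7% and 7.77% of all genes. After rescaling 2 were higher and 3 lower, beside 22.7% and 28.4%. The 6 markers of other cell types found in the table summed to 3.92 and 3 TPM in shNT and to 7.48 and 8.78 TPM in shGLUD1, nearly all from the fibroblast and pericyte genes COL1A1 and PDGFRB. Both rose on TPM (0.95 and 0.84) and did not pass after rescaling (0.36 and 0.33). COL1A1 also lost its call without shNT replicate 2 (0.71, limma adjusted p = 0.125), and PDGFRB without shNT replicate 1 (0.78, adjusted p = 0.103), shNT replicate 2 (0.90, adjusted p = 0.0543) or shGLUD1 replicate 2 (0.65, adjusted p = 0.0597). The part of these markers in the results was not tested.

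Promoter windows from RefSeq (GRCh38.p14), 250 bases before to 50 after an annotated start, were used for 7 of the 9 members, 14 windows in all. No window was used for SLC7A11 or SLC7A2, so nothing is said of motifs there. A pair of short motifs was searched on both strands: TGATGNAA, the core of the composite element that ATF4 binds with C/EBP proteins, and TGACNNNGC, the core of the antioxidant response element. Of 35116 windows in the RefSeq table, 3.62% held the first and 13.3% the second. The first was found in 1 window of SLC3A2 and in the window of SLC7A1, so these are printed first. They are followed by the window of SLC7A5, the most abundant light chain, and by the SLC3A2 window that faces its divergent neighbour SNHG1. Each is written 5′ to 3′ on the gene's strand, with matches to either motif in capitals.
SLC3A2, chr11:62881449-62881748, plus strand: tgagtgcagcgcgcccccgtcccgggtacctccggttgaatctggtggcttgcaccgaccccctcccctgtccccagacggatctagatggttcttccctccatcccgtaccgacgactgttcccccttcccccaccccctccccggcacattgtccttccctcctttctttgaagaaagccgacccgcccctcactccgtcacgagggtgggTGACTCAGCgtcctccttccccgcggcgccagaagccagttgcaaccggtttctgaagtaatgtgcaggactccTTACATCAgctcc
SLC7A1, chr13:29595639-29595938, minus strand: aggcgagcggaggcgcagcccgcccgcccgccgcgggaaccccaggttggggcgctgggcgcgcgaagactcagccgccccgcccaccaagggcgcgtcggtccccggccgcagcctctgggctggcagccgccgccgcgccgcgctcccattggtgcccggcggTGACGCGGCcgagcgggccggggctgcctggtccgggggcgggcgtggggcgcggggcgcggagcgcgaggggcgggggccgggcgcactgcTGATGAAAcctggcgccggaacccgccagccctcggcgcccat
SLC7A5, chr16:87869458-87869757, minus strand: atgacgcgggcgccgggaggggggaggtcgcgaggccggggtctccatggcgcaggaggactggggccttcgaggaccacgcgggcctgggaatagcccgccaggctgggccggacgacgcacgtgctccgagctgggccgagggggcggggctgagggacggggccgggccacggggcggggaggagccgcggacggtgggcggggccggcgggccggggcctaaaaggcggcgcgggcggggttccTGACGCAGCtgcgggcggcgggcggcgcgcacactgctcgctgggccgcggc
SLC3A2, chr11:62855859-62856158, plus strand: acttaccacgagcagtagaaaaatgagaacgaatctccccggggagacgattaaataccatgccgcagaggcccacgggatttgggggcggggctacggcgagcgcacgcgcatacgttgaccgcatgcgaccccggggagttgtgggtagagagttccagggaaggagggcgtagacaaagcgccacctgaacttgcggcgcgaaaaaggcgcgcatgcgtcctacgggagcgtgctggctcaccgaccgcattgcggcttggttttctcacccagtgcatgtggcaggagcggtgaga

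In the first SLC3A2 window the antioxidant motif read TGACTCAGC (chr11:62881662-62881670), and the ATF4 motif lay on the opposite strand, read on the gene's strand as TTACATCA (chr11:62881736-62881743), downstream of the annotated start. In SLC7A1 the ATF4 motif read TGATGAAA (chr13:29595674-29595681), also downstream of the start, and the antioxidant motif TGACGCGGC (chr13:29595765-29595773). The SLC7A5 window held TGACGCAGC across its start and no match to the ATF4 motif, and the SLC3A2 window beside SNHG1 held neither, nor did the third SLC3A2 window. SLC7A6 held 2 antioxidant matches and SLC7A7 1, while none of the 4 SLC7A8 windows nor that of SLC7A10 held a match. The matches describe letters only. These windows were GC-rich in SLC7A1 (82.0%), SLC7A5 (80.3%) and SLC7A6 (78.7%), against a median of 58.7% over all windows and 62.7% in the first SLC3A2 window.

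The heavy chain was far above every light chain in each library and was much lower in shGLUD1. SLC3A2 (ENSG00000168003, GRCh38 chromosome 11, 62856102 to 62888875, plus strand) had levels of 769.97 and 768.80 TPM in shNT and of 111.35 and 122.79 TPM in shGLUD1. The shNT libraries were within 0.83 TPM of SD around 769 TPM, and both shGLUD1 libraries were far below them, at 117 ± 8.1 TPM, a 6.57-fold lower mean. The log2 fold change was -2.71 (SE 0.09), and -3.48 (SE 0.12) after rescaling. It was the gene at rank 16 from the lowest of 12524 on either scale. Ordered by level among the same genes, SLC3A2 moved from ranks 202 and 205 in shNT to ranks 1208 and 1184 in shGLUD1. In a bulk sample, fewer cells with a transcript and less of it per cell cannot be told apart.

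**Figure D1:**
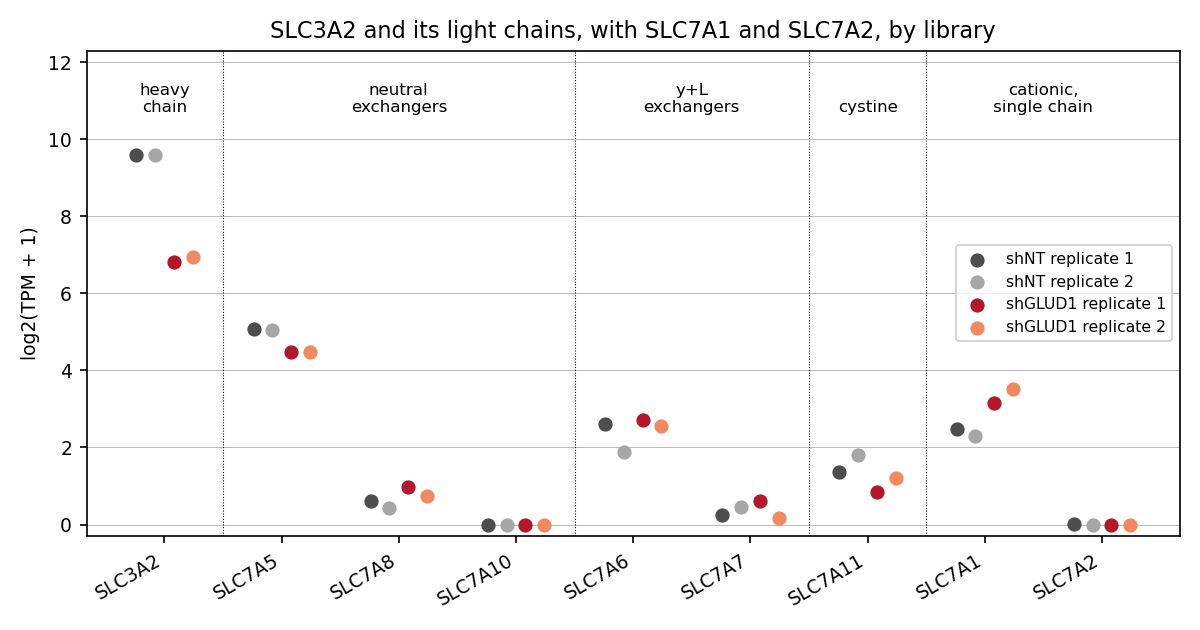
Level of each member in each library as log2(TPM + 1), one point per library, grouped by role; grey points are shNT and red or orange points shGLUD1. SLC3A2 lies near 769 TPM in shNT and at 111.35 and 122.79 TPM in shGLUD1, SLC7A5 is the next most abundant, and SLC7A10 and SLC7A2 sit at or next to 0.

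The light chains of neutral amino acids were led by SLC7A5, known as LAT1, which imports leucine and other large neutral amino acids in exchange for intracellular ones such as glutamine. SLC7A5 (ENSG00000103257, chromosome 16, 87830023 to 87869488, minus strand) was at 33.03 and 32.11 TPM in shNT and at 21.12 and 21.26 TPM in shGLUD1. Both shGLUD1 libraries were below both controls and the pairs did not overlap. The log2 fold change was -0.60 (SE 0.14), -1.34 after rescaling, so the direction was that of SLC3A2 and the size smaller on either scale. SLC7A8, or LAT2, a neutral exchanger of the basolateral membrane of kidney tubules, was at 0.53 and 0.34 TPM in shNT and at 0.95 and 0.68 TPM in shGLUD1. It was higher in both shGLUD1 libraries, but its mean over the 4 libraries, 0.625 TPM, was under the minimum for the fit. SLC7A10, or Asc-1, an exchanger of small neutral amino acids, was listed at 0 in all 4 libraries.

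SLC7A5 has partial copies elsewhere on chromosome 16, and reads shared with them could have been split by the counting. SLC7A5P1 was at 0.90 and 0.94 TPM in shNT and at 0.17 and 0.18 TPM in shGLUD1. SLC7A5P2 was at 0 and 0.89 TPM in shNT and at 0 and 0.14 TPM in shGLUD1. Both copies stayed below 1 TPM in each library, beside more than 20 TPM for SLC7A5.

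The y+L exchangers SLC7A6 and SLC7A7 release arginine or lysine in exchange for neutral amino acids and sodium. SLC7A6 (ENSG00000103064, chromosome 16, 68264516 to 68301823, plus strand) was at 5.08 and 2.69 TPM in shNT and at 5.58 and 4.87 TPM in shGLUD1. The groups overlapped, since shNT replicate 1 lay between the shGLUD1 libraries. Its log2 fold change of 0.39 (SE 0.27) became -0.24 (SE 0.27) after rescaling, so no direction can be given. Without shNT replicate 2 it was 0.03, and without shNT replicate 1 it was 0.75. SLC7A7, mutated in lysinuric protein intolerance, was at 0.18 and 0.36 TPM in shNT and at 0.53 and 0.13 TPM in shGLUD1, where the shGLUD1 libraries lay on either side of both controls. SLC7A6 overlaps SLC7A6OS on the opposite strand over 17321 bases. Without a stated strand setting, reads of the pair may not have been told apart. SLC7A6OS was at 9.51 and 7.21 TPM in shNT and at 10.42 and 10.15 TPM in shGLUD1.

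SLC7A11, or xCT, exports glutamate, the substrate of GLUD1, in exchange for cystine. SLC7A11 (ENSG00000151012, chromosome 4, 138164097 to 138242349, minus strand) was a low transcript here, at 1.56 and 2.51 TPM in shNT and at 0.81 and 1.29 TPM in shGLUD1. Both shGLUD1 libraries were below both controls, and the gap between the nearest libraries of the groups was smaller than the gap within shNT. The log2 fold change was -0.56 (SE 0.27), -1.01 (SE 0.24) after rescaling, and -0.89 with a pseudocount of 0.1 in place of 1 TPM. It was -0.33 without shNT replicate 2 and -0.79 without shNT replicate 1. The antisense gene SLC7A11-AS1, which overlaps it, was listed at 0 in every library.

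Of the cationic transporters that need no heavy chain, SLC7A1 was the one with a clear level. SLC7A1, or CAT-1 (ENSG00000139514, chromosome 13, 29509410 to 29595688, minus strand), which takes up arginine and lysine, was at 4.59 and 3.96 TPM in shNT and at 7.88 and 10.49 TPM in shGLUD1. Both shGLUD1 libraries were above both controls, the opposite of SLC3A2 and SLC7A5. The log2 fold change was 0.94 (SE 0.22), next to 0.63 for the median gene, and 0.27 (SE 0.17) after rescaling. SLC7A2, or CAT-2, on chromosome 8, was at 0.01 TPM in shNT replicate 1 and listed at 0 in the other libraries.

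**Figure D2:**
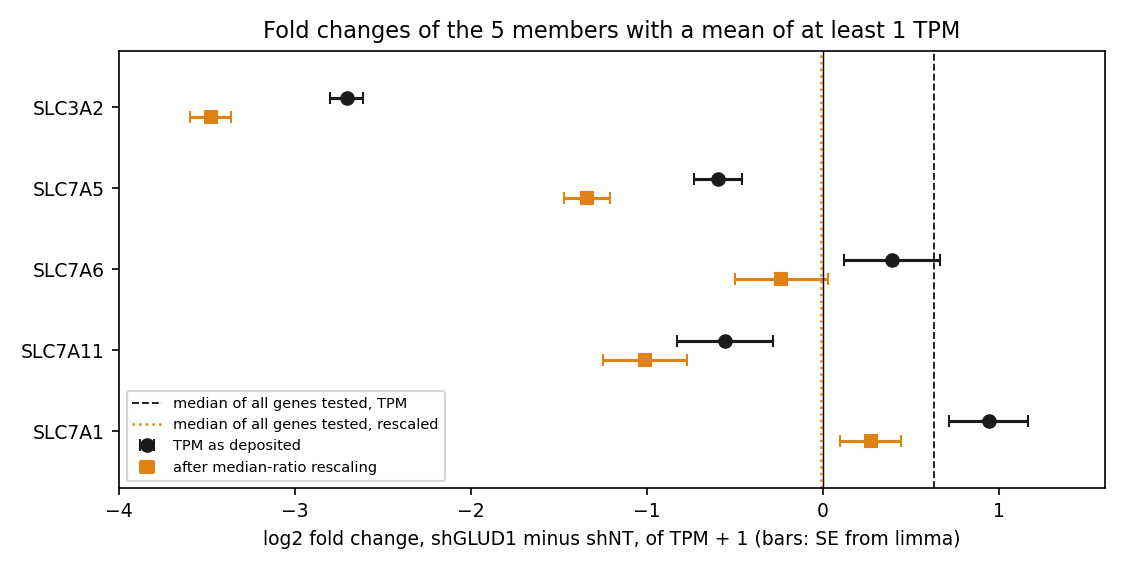
Log2 fold change of TPM + 1, shGLUD1 minus shNT, for the 5 members with a mean of at least 1 TPM; circles are TPM as deposited, squares the values after median-ratio rescaling, bars the SE from limma with 2 libraries per group, and dashed and dotted lines the median of all genes tested. SLC3A2 lies at -2.71 and -3.48, SLC7A5 at -0.60 and -1.34, and SLC7A6 changes side between the scales.

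Counted together, 8 of the 9 members were above 0 in at least 1 library and 5 reached the minimum for the fit. Of these 5, SLC3A2, SLC7A5 and SLC7A11 were lower in both shGLUD1 libraries than in both controls, as were 13.5% of all genes tested, SLC7A1 was higher in both, as were 69.9%, and SLC7A6 overlapped. The median log2 fold change of the 5 was -0.56, beside 0.63 over all genes tested. Since the members were chosen from this contrast, nothing is read from these counts.

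Ordered by level in shNT, SLC3A2 came first and SLC7A5 second. SLC7A1 and SLC7A6, whose libraries overlapped, came next, then SLC7A11. SLC7A8 and SLC7A7, which overlapped, followed, and SLC7A2 and SLC7A10 came last. In shGLUD1 the order was the same in its first places, but SLC7A1 stood above SLC7A6 in both libraries, and SLC7A11 overlapped SLC7A8. SLC7A5 was 7.20 and 8.11 times SLC7A1 in the shNT libraries, and 2.68 and 2.03 times in the shGLUD1 libraries.

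The transcript of the heavy chain outnumbered those of its light chains in every library, and by a smaller factor in shGLUD1. The 6 light chains summed to 40.4 and 38.0 TPM in shNT and to 28.99 and 28.23 TPM in shGLUD1. SLC3A2 was 19.1 and 20.2 times that sum in shNT and 3.84 and 4.35 times in shGLUD1. The ratio is taken within a library, so rescaling does not change it: the log2 difference was -2.26, and between -2.35 and -2.17 with each library left out in turn. Within the sum SLC7A5 held 81.8% and 84.5% in shNT and 72.9% and 75.3% in shGLUD1. SLC7A6 held 12.6% and 7.08% in shNT and 19.3% and 17.3% in shGLUD1, and SLC7A11 3.86% and 6.60% in shNT and 2.79% and 4.57% in shGLUD1. These are ratios of transcripts and not of protein.

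**Figure D3:**
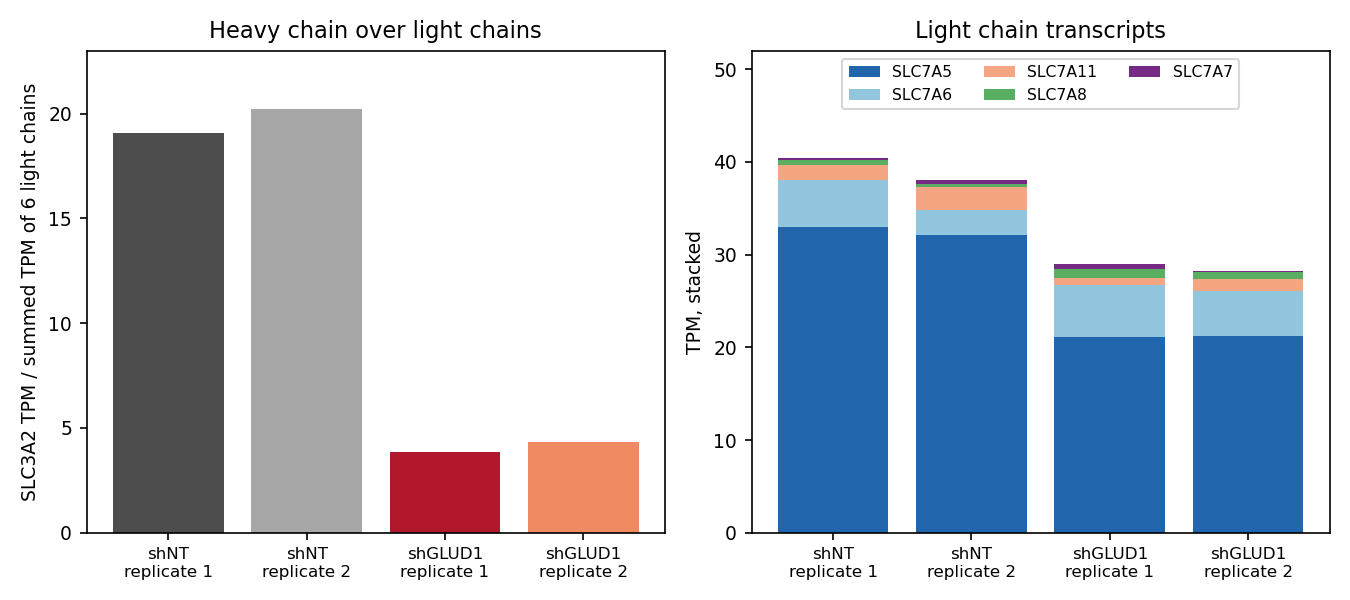
Left, SLC3A2 TPM divided by the summed TPM of SLC7A5, SLC7A6, SLC7A7, SLC7A8, SLC7A10 and SLC7A11, one bar per library; right, the TPM of the light chains stacked in each library (SLC7A10, listed at 0, adds nothing). The ratio is 19.1 and 20.2 in shNT and 3.84 and 4.35 in shGLUD1, and SLC7A5 makes up most of each stack.

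The members lie on 7 chromosomes. SLC7A7 and SLC7A8 are 295474 bases apart on chromosome 14 and both were below 1 TPM. The 5′ ends of SLC3A2 and SNHG1, a small nucleolar RNA host gene on the opposite strand, are 187 bases apart and the genes do not overlap. SNHG1 was at 64.65 and 80.22 TPM in shNT and at 43.27 and 56.83 TPM in shGLUD1. It fell (log2 fold change -0.53, SE 0.15, rescaled -1.29), with an adjusted p = 0.0116 from limma. The call was lost without shNT replicate 2 (-0.38, limma adjusted p = 0.112) and without shGLUD1 replicate 1 (-0.34, adjusted p = 0.112), and also without a variance trend (adjusted p = 0.0656) or a filter on low values (0.112). The rest of the SLC3 and SLC7 families was nearly silent: SLC3A1, the other heavy chain, and its partner SLC7A9 were listed at 0 throughout, as were SLC7A13 and SLC7A14, and SLC7A3 and SLC7A4 did not exceed 0.29 TPM.

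Likeness to SLC3A2 was measured as the Euclidean distance between centred log2(TPM + 1) profiles over the 4 libraries, among 7137 protein-coding genes averaging 5 TPM or more. The nearest was HMOX1, the inducible heme oxygenase (distance 0.058), at 789.36 and 749.43 TPM in shNT against 110.42 and 124.96 TPM in shGLUD1. GADD45B, a growth arrest gene (0.118), DDIT3, the stress factor CHOP (0.206), ID2, an inhibitor of helix-loop-helix factors (0.222), and CCL26, a chemokine (0.233), came next. The median distance of all genes searched was 3.33. SLC7A5 was at 2.11 and SLC7A1 at 3.65, so neither was among the near profiles. With 4 libraries in 2 groups the distance mostly reads the size of the group difference.

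Genes listed as upstream regulators of these transporters went both ways on TPM and were mostly lower after rescaling. Of 14 upstream regulators (kinases, transcription factors and proteins that act on them), 5 fell and 5 rose on TPM by the limma test, beside 7.77% and 56.7% of all genes tested, and their median log2 fold change was 0.05 against 0.63. DDIT3 was at 701.94 and 724.30 TPM in shNT and at 113.05 and 134.83 TPM in shGLUD1 (log2 fold change -2.52, limma adjusted p = 9.6e-08). PPP1R15A, which returns eIF2alpha to its unphosphorylated form, fell from 202.43 and 176.49 to 35.00 and 42.53 TPM (-2.26), and TRIB3, a pseudokinase that restrains ATF4, from 105.51 and 106.09 to 22.95 and 19.68 TPM (-2.26). ATF3, a partner factor, fell from 34.95 and 34.98 to 9.24 and 11.85 TPM (-1.65). The fifth, ATF4, named after its values were seen, was at 558.66 and 510.91 TPM in shNT and at 262.85 and 295.84 TPM in shGLUD1 (-0.94, limma adjusted p = 3e-05, rescaled -1.71). All 5 stayed lower after rescaling, where 10 of the 14 were lower and 2 higher, beside 28.4% and 22.7% of all genes tested.

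The 5 that rose, also named after their values were seen, were EIF2AK3 (1.41), EIF2AK4 (1.38), NFE2L2 (1.11), BACH1 (0.93) and CEBPB (0.44). EIF2AK4, the amino acid sensing kinase, was at 4.5 and 6.66 TPM in shNT and at 13.74 and 18.26 TPM in shGLUD1. NFE2L2 encodes NRF2, which acts through the antioxidant element, and BACH1 competes for that element. After rescaling EIF2AK3 and EIF2AK4 were still higher, NFE2L2 (0.47) and BACH1 (0.50) did not pass, and CEBPB was lower (-0.32, limma adjusted p = 0.0393). EIF2AK3 was low in shNT, at 0.63 and 0.47 TPM, and at 4.10 and 2.30 TPM in shGLUD1. It thus reached the minimum for the fit through shGLUD1 alone. Its call was lost under quantile normalization (0.80, limma adjusted p = 0.0578). BACH1 was at 0.32 and 1.38 TPM in shNT and at 2.07 and 2.72 TPM in shGLUD1. With a shNT mean of 0.85 TPM, BACH1 also reached the minimum only through shGLUD1. BACH1 also lost its call without shNT replicate 1 (0.51, limma adjusted p = 0.298), shGLUD1 replicate 1 (1.07, adjusted p = 0.0616) or shGLUD1 replicate 2 (0.79, adjusted p = 0.146). CEBPB lost it without shNT replicate 1 (0.41, limma adjusted p = 0.0738) or shGLUD1 replicate 2 (0.33, adjusted p = 0.0534).

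Downstream of cystine uptake, 4 of 12 genes of cystine and glutathione metabolism rose, 3 fell and 5 did not pass (median 0.08, beside 0.63 for all genes). Over all genes tested 56.7% were called higher and 7.77% lower. After rescaling none was higher and 7 were lower, beside 22.7% and 28.4%. CHAC1, which degrades glutathione, fell from 27.85 and 23.75 TPM to 11.33 and 11.66 TPM (-1.10, limma adjusted p = 0.000214, rescaled -1.82). CTH, which makes cysteine from cystathionine, fell from 14.27 and 14.85 TPM to 6.34 and 8.32 TPM (-0.91, rescaled -1.61). The third to fall was GGT1 (-0.40), named after its values were seen. It lost its call without shNT replicate 1 (-0.50, limma adjusted p = 0.059), shNT replicate 2 (-0.30, adjusted p = 0.277) or shGLUD1 replicate 2 (-0.27, adjusted p = 0.151). TXNRD1, thioredoxin reductase, rose from 26.33 and 27.28 TPM to 45.26 and 69.47 TPM (1.04), and GCLM, a subunit of glutamate-cysteine ligase, rose (0.95). Rescaled, they were at 0.28 and 0.26 and did not pass. GCLM lost its call without shNT replicate 1 (0.65, limma adjusted p = 0.0937) or shGLUD1 replicate 2 (0.79, adjusted p = 0.0705). GSR and GGCT, named after their values were seen, rose on TPM (0.90 and 0.80) and did not pass after rescaling (0.16 and 0.06).

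Proteins known to bind SLC3A2 or its light chains, or to control their turnover, were read next. Of 9 measured genes, 6 rose, 2 fell and 1 did not pass (median 0.91), where 56.7% of all genes rose and 7.77% fell, and after rescaling 4 were higher and 3 lower, where 22.7% and 28.4% of all genes were. ITGB1, the integrin chain whose tail binds SLC3A2, was at 38.90 and 43.37 TPM in shNT and at 97.36 and 141.26 TPM in shGLUD1 (1.49, limma adjusted p = 3.6e-05, rescaled 0.73). LAPTM4B, which brings SLC3A2 and SLC7A5 to lysosomes, rose from 6.99 and 8.05 TPM to 27.20 and 36.52 TPM (1.94, rescaled 1.21). The ubiquitin ligase genes NEDD4L and MARCH8 rose (1.36 and 1.32, rescaled 0.61 and 0.73). ITGB3, another integrin chain, and CD44, named after their values were seen, rose on TPM (0.53 and 0.91). Neither passed after rescaling (-0.19 and 0.13), and ITGB3 was also below 0 under quantile normalization (-0.18). The 2 that fell, named after their values were seen, were LGALS3, galectin-3 (-0.45, rescaled -1.23), and OTUB1, a deubiquitinase that stabilises SLC7A11 (-0.29, rescaled -1.07). OTUB1 lost its call without shNT replicate 1 (-0.25, limma adjusted p = 0.212), shNT replicate 2 (-0.33, adjusted p = 0.0925) or shGLUD1 replicate 1 (-0.27, adjusted p = 0.0519).

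Of 7 measured genes that use or divert arginine, ornithine and lysine, 5 rose, none fell and 2 did not pass (median 0.84, beside 0.63 for all genes, of which 56.7% rose and 7.77% fell). After rescaling 2 were higher and 3 lower, beside 22.7% and 28.4% of all genes. OAT, ornithine aminotransferase, was at 11.25 and 11.56 TPM in shNT and at 23.99 and 35.84 TPM in shGLUD1 (1.29, limma adjusted p = 0.00024, rescaled 0.55). AASS, the entry enzyme of lysine breakdown, rose (1.02, rescaled 0.61). It was at 0.58 and 0.53 TPM in shNT and at 1.90 and 2.44 TPM in shGLUD1, so it reached the minimum for the fit through shGLUD1 alone. The AASS call was lost under quantile normalization (0.42, limma adjusted p = 0.123). AZIN1, the antizyme inhibitor, and ARG2, mitochondrial arginase, rose on TPM (1.09 and 0.84) and did not pass when rescaled (0.36 and 0.16). ARG2 lost its call without shNT replicate 1 (0.79, limma adjusted p = 0.0514). ODC1, named after its values were seen, was higher on TPM (0.40) and lower after rescaling (-0.37, limma adjusted p = 0.0296), and lost its TPM call in 3 of the 4 fits without 1 library (0.20 to 0.43, adjusted p = 0.0571 to 0.164).

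**Figure D4:**
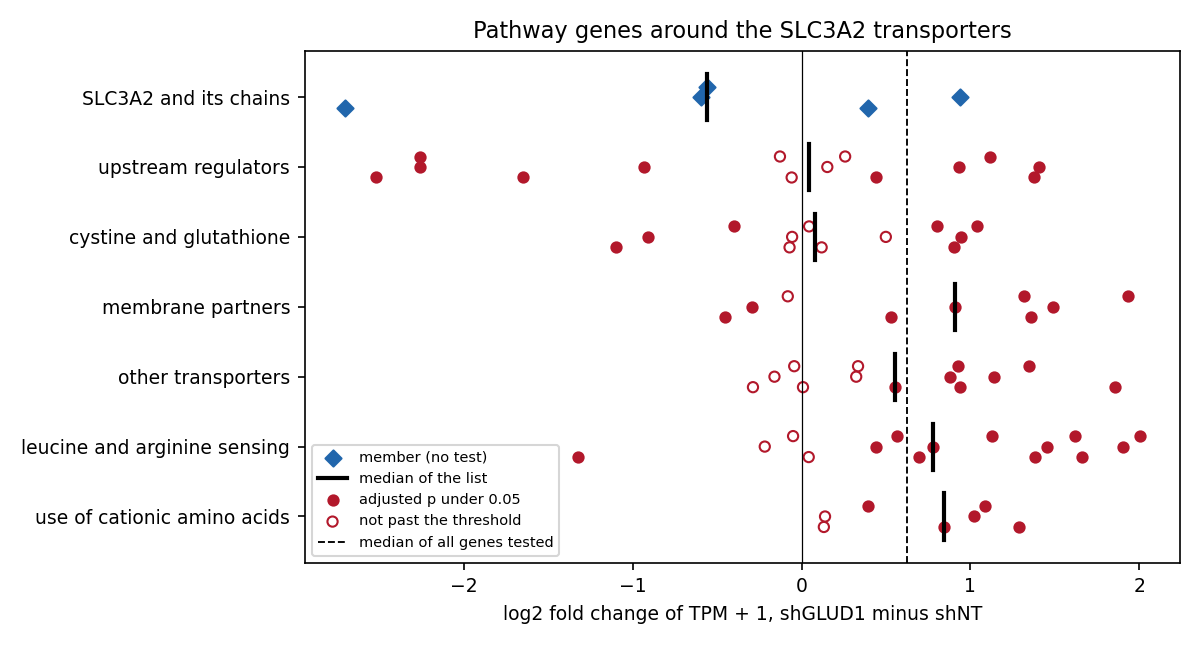
Log2 fold change of TPM + 1, shGLUD1 minus shNT, of each gene averaging 1 TPM or more, in rows by list; blue diamonds are the members, shown without a test, filled circles passed the limma test over all genes and open circles did not. Thick bars are list medians, and the dashed line is the median of all genes tested (0.63); SLC3A2 (-2.71) lies beside DDIT3 (-2.52) at the low end.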

How the data were processed

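RNA was sequenced from 4 libraries of 786-0 cells, 2 per group, grouped by the sample titles. Table columns were matched to samples by the library code in the labels. The authors deposited 1 table of TPM, per the file name and values: each column sums to 1000000, with 2 decimals and no scaling between libraries seen. Bowtie 0.12.2 and, as genome builds, mm8 and hg38 are named per the submitters' processing notes, with no role. For the quantifier, annotation and strand setting the entry is: not given in the sources used here. The depth is unknown.

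Genes averaging 1 TPM or more (12524) were analysed as log2(TPM + 1) with limma 3.58.1 in R 4.3.3 (lmFit and eBayes with trend). The design held the group alone, tests were two-sided, and the threshold was an adjusted p (Benjamini-Hochberg, over all genes) of 0.05. Simulated data were used to test the script. For a single gene 2 libraries per group limit the precision, and limma borrows spread across genes. Alternatives were median-ratio rescaling, quantile normalization, a pseudocount of 0.1 TPM, no filter, a minimum mean of 5 TPM, eBayes without trend, a replicate block, and leaving out each library. Tables and figures used Python 3.11.15, pandas 2.3.3, numpy 2.4.6 and matplotlib 3.10.9.

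Positions (GRCh38) are those of GENCODE 29, which holds 52338 of the 57820 gene identifiers, and promoter sequences from RefSeq on GRCh38.p14. The members, lists and motifs were chosen with earlier results of these data known. Named genes are the 9 members, GLUD1, the genes copied from or neighbouring members, up to 4 passing genes per list with the largest change (or the 2 most abundant where fewer than 2 passed), and the 5 nearest to SLC3A2. Other genes are said to be named after their values were seen.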

Additional observations from a re-analysis of the deposited data

How the results depend on the processing

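Genes higher in shGLUD1 numbered 7105 on TPM, 2846 after median-ratio rescaling, 2938 after quantile normalization and 4676 with a minimum mean of 5 TPM, and genes lower numbered 973, 3557 after rescaling and 2764 after quantile normalization. Genes of the pathway lists higher in shGLUD1 numbered 38, against 18 and 16 under rescaling and quantile normalization, and those lower 12, against 31 and 23. Under rescaling and then quantile normalization the log2 fold change was -3.48 and -2.82 for SLC3A2, -1.34 and -1.17 for SLC7A5, -1.01 and -1.16 for SLC7A11, 0.27 and 0.16 for SLC7A1, and -0.24 and -0.35 for SLC7A6, which was above 0 on TPM. The summed light chains moved from -0.45 to -1.23 under rescaling. Rescaling lowers nearly all fold changes by construction. With a pseudocount of 0.1 TPM, SLC7A5 was at -0.62 and SLC7A11 at -0.89. Leaving out each library in turn gave -2.78 to -2.64 for SLC3A2 (-2.78 without shGLUD1 replicate 2, the library in which GLUD1 was above the controls on unrescaled TPM), -0.62 to -0.58 for SLC7A5, 0.75 to 1.13 for SLC7A1 and 6244 to 8063 genes changed, against 8078 with all. Of 154 counts for single lists with a gene tested and settings, 120 were within 1.5 times the reported count. Under rescaling and under quantile normalization, however, most of these list counts moved further than that. With the replicate number as a block 8456 genes changed and SLC3A2 stayed at -2.71. Same-numbered libraries did not deviate together (correlation 0.039 across genes), so the numbers were not taken as pairs. Depth is unknown, so no limit can be set for the members listed at 0.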

Other observations

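Of 13 other amino acid transporters of the plasma membrane and lysosome that were measured, 7 rose on TPM, none fell and 6 did not pass the limma test, with a median log2 fold change of 0.55 beside 0.63 for all genes. Over all genes tested 56.7% rose and 7.77% fell. After rescaling 3 were higher and 3 lower, beside 22.7% and 28.4% of all genes. SLC1A1, a glutamate and aspartate transporter, was at 2.31 and 2.18 TPM in shNT and at 9.03 and 12.72 TPM in shGLUD1 (1.85, limma adjusted p = 8.7e-05, rescaled 1.22). SLC38A1 and SLC38A2, sodium-coupled carriers of glutamine and small neutral amino acids, rose (1.35 and 1.14, rescaled 0.71 and 0.41). The SLC38A1 call was lost under quantile normalization (0.58, limma adjusted p = 0.0778). SLC36A4, SLC38A7 and SLC43A1, named after their values were seen, rose on TPM (0.92, 0.55 and 0.88). They did not pass after rescaling (0.51, -0.14 and 0.27). SLC36A4, at 0.93 and 0.44 TPM in shNT and at 2.51 and 1.85 TPM in shGLUD1, reached the minimum through shGLUD1 alone. SLC6A15, a carrier of branched-chain amino acids and proline, rose on TPM (0.94) but not after rescaling (0.32), and lost its call without shNT replicate 1 (0.85, limma adjusted p = 0.0618). SLC1A5, the main glutamine transporter ASCT2, named after its values were seen, was at 148.17 and 154.93 TPM in shNT and at 128.08 and 143.23 TPM in shGLUD1, which did not pass on TPM (-0.16, limma adjusted p = 0.194) and was lower after rescaling (-0.93, adjusted p = 0.000334). SLC1A4, a neutral amino acid exchanger, and SLC38A5, a glutamine carrier under the minimum for the fit, also named after their values were seen, were below both controls in both shGLUD1 libraries. SLC1A4 was at 9.91 and 11.44 TPM in shNT and at 7.9 and 9.23 TPM in shGLUD1, which did not pass on TPM (-0.29, limma adjusted p = 0.208) and did after rescaling (-0.99, adjusted p = 0.000993). SLC38A5 was at 1.52 and 1.16 TPM in shNT and at 0.2 and 0.31 TPM in shGLUD1.

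Genes that sense leucine and arginine or signal from them to mTORC1 were read as a list of 15 measured, of which 11 rose on TPM, 1 fell and 3 did not pass (median 0.78), beside 56.7% and 7.77% of all genes. After rescaling 7 were higher and 4 lower, beside 22.7% and 28.4%. RHEB, BCAT1 and BCAT2, named after their values were seen, rose on TPM (0.44, 0.78 and 0.70). They did not pass after rescaling (-0.33, 0.12 and -0.05). GATSL3, the arginine sensor CASTOR1, was at 1.31 and 1.88 TPM in shNT and at 10.82 and 8.07 TPM in shGLUD1 (2.01, limma adjusted p = 7.2e-05, rescaled 1.41). RRAGA and RRAGD, Rag GTPases, rose (1.90 and 1.66, rescaled 1.16 and 0.99), as did LARS, leucyl-tRNA synthetase (1.62, rescaled 0.91). The Rag GTPases RRAGB and RRAGC, named after their values were seen, differed. RRAGB did not pass on TPM (-0.22) and was lower after rescaling (-0.81, limma adjusted p = 0.0201). RRAGC rose on TPM (0.57) and did not pass after rescaling (-0.16). The 1 that fell was SESN2, a leucine-binding sestrin, named after its values were seen. SESN2 was at 46.84 and 46.29 TPM in shNT and at 17.14 and 18.83 TPM in shGLUD1 (-1.33, limma adjusted p = 2.7e-05, rescaled -2.07). SESN1, another sestrin and named likewise, rose (1.13, rescaled 0.70). It was at 0.56 and 0.62 TPM in shNT and at 1.92 and 3.12 TPM in shGLUD1. SESN1 thus reached the minimum for the fit through shGLUD1 alone, and its call was lost under quantile normalization (0.51, limma adjusted p = 0.0838).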
